A study of Mus musculus with 6 samples.

Results

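Claudins are membrane proteins that cross the membrane in 4 passes and polymerise into the strands of the tight junction, the seal that closes the space between neighbouring epithelial cells. Some claudins form pores that let small ions or water pass between cells, and others tighten the seal. The intestine carries a mixture of both kinds, and the mixture sets how leaky the epithelium is. Described here are 10 claudins of the gut epithelium (Cldn1, Cldn2, Cldn3, Cldn4, Cldn7, Cldn8, Cldn12, Cldn15, Cldn18 and Cldn23), chosen by gene symbol from the 36172 genes of the deposited table, with 1 row per symbol. Their expression was followed in small intestinal tumor organoids, which are cultures of tumor epithelial cells grown in a gel.

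The organoids came from C57BL/6 mice of 15 to 20 weeks. All of them carried the ApcΔ716 truncation, controls included, and the paper describes Wnt signaling as active in ApcΔ716 tumors. It reports that wild-type Apc is lost in ApcΔ716 tumor cells, with a test in Trp53+/R270H tumors. That loss was not tested in the organoids used here. The organoids differed in Trp53, which encodes p53. Trp53+/+ organoids kept the wild-type gene. Trp53flox/flox organoids carried 2 copies of the LSL•R270H allele with its stop cassette still in place, which made them functionally null for p53. In Trp53R270H/R270H organoids the cassette had been removed by tamoxifen and villin-CreER, a recombinase driven in intestinal epithelium, so both alleles expressed the missense protein p53R270H. The Trp53flox/flox mice carried villin-CreER too. Among the genotypes sequenced, the paper describes tamoxifen only for the Trp53R270H/R270H mice, so tamoxifen and the mutation cannot be told apart. Each genotype had 2 libraries from independently prepared organoids, and poly(A) RNA was sequenced. Values are in rpkm, read counts scaled to transcript length and to the mapped reads of the library, a unit that allows levels to be compared between genes of different length. With 2 libraries against 2, an exact permutation test cannot give a p below 0.333, so differences were tested with limma on log2(rpkm+1) over all genes that reached 4 rpkm in at least 1 library (10042 genes). A gene is called where its Benjamini-Hochberg adjusted p was under 0.05.

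Trp53 stood at 75.9 and 74.3 rpkm in Trp53+/+, at 1.73 and 2.48 rpkm in Trp53flox/flox and at 72.8 and 82.7 rpkm in Trp53R270H/R270H organoids. This level fitted the labels of the null libraries. It cannot tell Trp53R270H/R270H from Trp53+/+ libraries, which overlapped (log2 fold change 0.05, adjusted p=0.868 from limma). All 8 epithelial markers examined, Epcam, Cdh1, Krt8, Krt18, Krt19, Vil1, Cdx1 and Cdx2, were above the floor in every library, and their summed level was 2710 to 2750 rpkm in Trp53+/+, 4020 to 4310 in Trp53flox/flox and 2250 to 2400 in Trp53R270H/R270H. Limma called Krt8 (log2 fold change 0.70, adjusted p=0.0329) and Krt19 (0.84, adjusted p=0.0411) higher in Trp53flox/flox than in Trp53+/+. Krt8 (-0.93, adjusted p=0.0112), Krt18 (-0.80, adjusted p=0.0192) and Krt19 (-1.62, adjusted p=0.00657) were called lower in Trp53R270H/R270H than in Trp53flox/flox, and Krt19 alone was lower in Trp53R270H/R270H than in Trp53+/+ (adjusted p=0.0469). Of 10 fibroblast and muscle genes, 9 or 10 were at the floor in every library except Trp53flox/flox replicate 2, where 5 were above it and Acta2 reached 11.5 rpkm. The leukocyte genes Ptprc, Csf1r, Cd3e and Cd79a and the endothelial genes Pecam1, Kdr and Emcn were at the floor throughout, while Cd68 ranged from 2.06 to 11.1 rpkm. Of the other endothelial markers, Cldn5 was above the floor only in Trp53R270H/R270H (1.13 and 1.24 rpkm), and Cdh5 was at 8.88 and 9.35 rpkm in Trp53+/+ and at 1 to 3.30 rpkm elsewhere, called lower in Trp53R270H/R270H (adjusted p=0.0224) and in Trp53flox/flox (adjusted p=0.0411). In RNA from whole cultures, fewer cells of a type and less RNA per cell cannot be told apart. The Trp53flox/flox pair was the least alike. Its libraries differed by more than 2-fold in 12.6% of the genes tested, against 0.0996% in Trp53+/+ and 0.259% in Trp53R270H/R270H, and by more than 2-fold in 4 of the 8 claudins above the floor in every library (Cldn2, Cldn3, Cldn8 and Cldn15), where the share of all genes above the floor in every library was 10.3%.

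Cldn1, a sealing claudin, was at the floor of 1 rpkm in all 6 libraries and was not tested. Cldn18 was at the floor in 5 of 6. The floor can hide reads. At 44.2 M reads, the lowest depth that could be estimated, 1 rpkm corresponds to about 144 reads on the 3247 nt transcript of Cldn1, so expression below that level is unknown. The other 8 claudins were above the floor in every library. In Trp53+/+ organoids the highest level was that of Cldn7, at 180±12.5 rpkm (mean±s.d., n=2), followed by Cldn4 at 116±6.86, Cldn2 at 60.1±4.41, Cldn15 at 31.1±0.768, Cldn12 at 26.5±0.857, Cldn3 at 24.4±5.05, Cldn8 at 9.57±0.511 and Cldn23 at 6.05±0.374 rpkm. Only Cldn12 and Cldn3 overlapped between neighbours of this order. Cldn7 and Cldn4 together made up 60.5% to 67.7% of the summed claudin rpkm in every library, whereas the share of Cldn3 was 4.78% to 5.89% in Trp53+/+, 14.5% and 23.7% in Trp53flox/flox and 3.44% to 4.18% in Trp53R270H/R270H. The sum itself was 475 and 436 rpkm in Trp53+/+, 794 and 626 in Trp53flox/flox and 311 and 367 in Trp53R270H/R270H, so the genotypes did not overlap. The summed epithelial markers had the same order of genotypes. Separation in pairs was common, in 81.8% of all genes tested for Trp53R270H/R270H against Trp53+/+, 64.5% for Trp53flox/flox against Trp53+/+ and 68% for Trp53R270H/R270H against Trp53flox/flox. The share of genes in which all genotypes separate, here or below, was not counted.

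**Figure D1:**
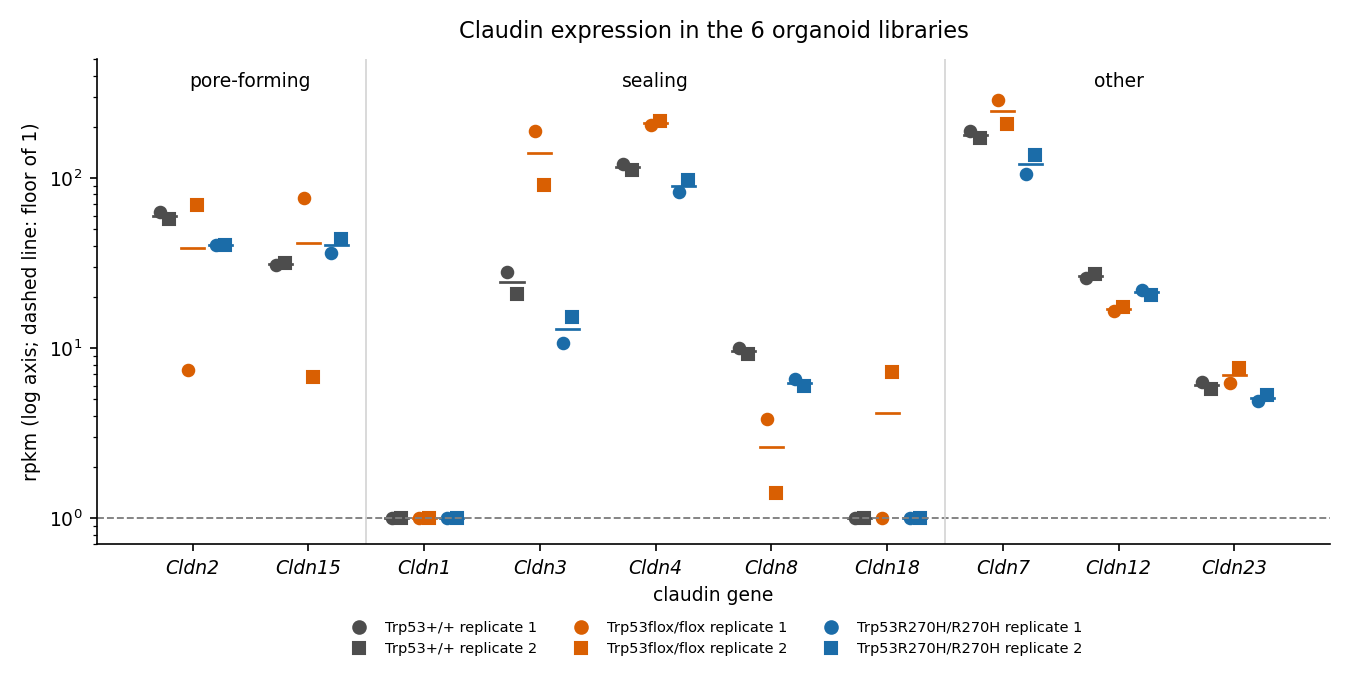
Expression of the 10 claudins in rpkm on a log axis, grouped as pore-forming, sealing and other. Each point is 1 library (circles replicate 1, squares replicate 2), horizontal bars are genotype means and the dashed line is the floor of 1 rpkm; Cldn3 and Cldn4 were highest in both Trp53flox/flox libraries, and Cldn2 and Cldn15 were split between them.

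The pore-forming claudins were Cldn2, a channel for small cations and water that is typical of leaky epithelia and crypts, and Cldn15, the sodium pore of the small intestine. Cldn2 (chromosome X, 139800808 to 139811386, GRCm38.p6) was at 63.2 and 57.0 rpkm in Trp53+/+, 7.47 and 69.7 rpkm in Trp53flox/flox and 40.5 and 40.2 rpkm in Trp53R270H/R270H organoids. Both Trp53R270H/R270H libraries lay below both Trp53+/+ libraries, and the Trp53flox/flox libraries lay on either side of all others. Cldn15 (chromosome 5, 136967869 to 136975845) was at 30.6 and 31.7, at 75.9 and 6.72, and at 36.4 and 43.9 rpkm in the same order. Here the Trp53R270H/R270H pair lay above the Trp53+/+ pair, and the Trp53flox/flox libraries again enclosed all others, but the other way round: replicate 1 was lowest in Cldn2 and highest in Cldn15. Limma called neither gene in any comparison. Against Trp53+/+, the log2 fold change of Cldn2 in Trp53flox/flox was -1.32 (s.e. 0.95, adjusted p=0.356), but it was 0.21 without replicate 1 and -2.85 without replicate 2. That of Cldn15 was -0.40 (s.e. 1.03, adjusted p=0.801), but -2.06 without replicate 1 and 1.26 without replicate 2, so no direction can be given for either in p53-null organoids. Cdx1, an intestinal homeobox factor and one of the epithelial markers, was split in the same sense as Cldn15, at 37.0 and 4.73 rpkm in the Trp53flox/flox libraries against 20.8 and 19.8 rpkm in Trp53+/+. Its part in the split was not tested, and it was named after its values were seen.

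The 250 bases upstream of the RefSeq start sites (GRCm38.p6) of these 2 genes are shown because these genes were split most widely between the Trp53flox/flox libraries, in opposite senses. RefSeq windows were found for 8 of the 10 claudins and not for Cldn8 and Cldn23. Each is printed 5′ to 3′ on the strand of the gene. Capitals mark matches, on either strand, to the CDX core TTTATG, the TATA box TATAAA, the GC box GGGCGG, the Snail and Zeb E-box CAGGTG, the TCF/LEF cores CTTTGA and CTTTGT, or the p53 half-site, none of which overlap here. Cldn2 lies at chrX:139800558-139800807, plus strand, and Cldn15 at chr5:136967619-136967868, plus strand.
Cldn2: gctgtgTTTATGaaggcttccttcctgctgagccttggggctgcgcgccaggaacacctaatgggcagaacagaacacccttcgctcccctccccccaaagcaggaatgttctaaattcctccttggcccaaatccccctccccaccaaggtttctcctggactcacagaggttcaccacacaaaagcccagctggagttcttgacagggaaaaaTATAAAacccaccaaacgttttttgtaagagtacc
Cldn15: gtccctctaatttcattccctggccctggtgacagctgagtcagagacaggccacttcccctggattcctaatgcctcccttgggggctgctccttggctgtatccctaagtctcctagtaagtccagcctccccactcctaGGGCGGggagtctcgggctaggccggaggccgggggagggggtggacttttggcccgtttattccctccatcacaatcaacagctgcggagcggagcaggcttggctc
The Cldn2 window holds a CDX core 244 bases and a TATA box 35 bases before the start, and the Cldn15 window a GC box 108 bases before it. Among 27025 windows of the same length, taken as 1 per gene, 11.1% hold the CDX core, 13% the TATA box and 32.9% the GC box. A p53 half-site, found in 7.18% of those windows, was present in 1 of the 12 claudin windows, at a start site of Cldn18. The 12 are all start sites of 8 claudins and some overlap, so the 2 shares are not on the same unit. These matches are descriptions of the letters and not sites of binding.

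Among the sealing claudins, Cldn3 and Cldn4, both widespread barrier claudins of gut epithelium, rose in Trp53flox/flox organoids, and Cldn8, a barrier claudin of the distal gut and kidney, fell. Cldn3 (chromosome 5, 134986214 to 134987476) was at 28.0 and 20.8 rpkm in Trp53+/+, 189 and 91.0 rpkm in Trp53flox/flox and 10.7 and 15.3 rpkm in Trp53R270H/R270H organoids. The 3 genotypes did not overlap, with the null organoids highest and the missense organoids lowest. Its log2 fold change in Trp53flox/flox against Trp53+/+ was 2.39 (5.72-fold in mean rpkm, s.e. 0.39, adjusted p=0.0279 from limma), and in Trp53R270H/R270H against Trp53flox/flox it was -3.26 (10.7-fold lower in mean rpkm, s.e. 0.39, adjusted p=0.00864). Against Trp53+/+, Trp53R270H/R270H gave -0.86 (s.e. 0.39, adjusted p=0.198), which was not called.

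Cldn4 (chromosome 5, 134945123 to 134946934) lies on the minus strand and Cldn3 on the plus strand, with 39280 bases between their transcription starts. Cldn4 was at 121 and 111 rpkm in Trp53+/+, 204 and 215 rpkm in Trp53flox/flox and 83.2 and 97.2 rpkm in Trp53R270H/R270H organoids. It had the same order of genotypes as Cldn3 with a narrower range, and its Trp53flox/flox libraries were close to each other. The log2 fold changes were 0.85 in Trp53flox/flox against Trp53+/+ (1.81-fold, s.e. 0.12, adjusted p=0.0225 from limma), -1.21 in Trp53R270H/R270H against Trp53flox/flox (2.33-fold lower, s.e. 0.12, adjusted p=0.00572) and -0.36 in Trp53R270H/R270H against Trp53+/+ (s.e. 0.12, adjusted p=0.116).

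The upstream windows of Cldn3 (chr5:134985964-134986213, plus strand) and Cldn4 (chr5:134946935-134947184, minus strand) are shown because these neighbouring genes moved together, with capitals as above.
Cldn3: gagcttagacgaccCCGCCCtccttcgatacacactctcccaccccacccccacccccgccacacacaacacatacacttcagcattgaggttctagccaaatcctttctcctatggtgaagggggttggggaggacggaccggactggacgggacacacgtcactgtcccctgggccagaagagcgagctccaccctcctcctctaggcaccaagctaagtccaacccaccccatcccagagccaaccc
Cldn4: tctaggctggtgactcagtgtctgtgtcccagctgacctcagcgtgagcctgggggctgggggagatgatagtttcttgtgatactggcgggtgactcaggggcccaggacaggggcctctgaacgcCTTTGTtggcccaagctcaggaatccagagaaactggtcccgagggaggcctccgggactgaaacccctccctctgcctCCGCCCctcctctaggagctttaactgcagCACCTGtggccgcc
The Cldn3 window holds a GC box 236 bases before the start. The Cldn4 window holds an E-box at 14, a GC box at 44 and a TCF/LEF core at 123 bases before the start. The E-box is in 17.1% and the TCF/LEF core in 27.7% of all windows. The GC content of the windows was 60.8% for Cldn3 and 62.0% for Cldn4, against 52.0% for Cldn2 and 60.8% for Cldn15.

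Cldn8 (chromosome 16, 88560826 to 88563183) was at 9.94 and 9.21 rpkm in Trp53+/+, 3.84 and 1.41 rpkm in Trp53flox/flox and 6.53 and 5.96 rpkm in Trp53R270H/R270H organoids. The genotypes did not overlap, and here the null organoids were lowest. The log2 fold change was -1.63 in Trp53flox/flox against Trp53+/+ (3.65-fold lower, s.e. 0.33, adjusted p=0.0412 from limma), -0.55 in Trp53R270H/R270H against Trp53+/+ (adjusted p=0.322) and 1.09 in Trp53R270H/R270H against Trp53flox/flox (adjusted p=0.0685). With a pseudocount of 0.1 the difference between Trp53flox/flox and Trp53+/+ was -1.99 and not called (adjusted p=0.054). Cldn18 (chromosome 9, 99690796 to 99717267), which has stomach and lung isoforms, was at the floor in every library except Trp53flox/flox replicate 2, where it reached 7.27 rpkm. It passed the filter through that library alone and was not called in the comparisons of Trp53flox/flox with Trp53+/+ (adjusted p=0.304) or with Trp53R270H/R270H (adjusted p=0.274).

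Stomach genes were read beside Cldn18. Of a list of 17, 13 were above the floor in Trp53flox/flox replicate 2, against 3 in replicate 1, 9 in each Trp53+/+ library and 4 or 5 in the Trp53R270H/R270H libraries. Among the 4 with the highest level, Gkn3 was at 67.6 rpkm in Trp53flox/flox replicate 2 and at the floor in replicate 1, with 11.4 and 8.16 rpkm in Trp53+/+ and the floor in both Trp53R270H/R270H libraries. Psca was at 24.3 and 70.6 rpkm in Trp53flox/flox, 4.4 and 4.61 in Trp53+/+ and 8.11 and 9.11 in Trp53R270H/R270H organoids. The aspartic protease Ctse went the other way within the pair, at 352 and 129 rpkm, and the gastric lipase Lipf was highest in Trp53+/+, at 47.9 and 51.9 rpkm, with 1 and 4.17 rpkm in Trp53flox/flox. The library with Cldn18 was therefore the one with the most stomach genes above the floor, but not the one with the most of each.

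Of the remaining claudins, Cldn7 binds Epcam and lies along the lateral membrane as well as in the junction, Cldn12 is an atypical claudin linked to calcium uptake, and Cldn23 is a less studied claudin of the gut. Cldn7 (chromosome 11, 69964779 to 69967886, 372906 bases from the end of Trp53) was at 189 and 171 rpkm in Trp53+/+, 289 and 209 rpkm in Trp53flox/flox and 105 and 137 rpkm in Trp53R270H/R270H organoids. The genotypes did not overlap and had the order of Cldn3 and Cldn4. Only the comparison of Trp53R270H/R270H with Trp53flox/flox was called, at a log2 fold change of -1.03 (2.07-fold lower, s.e. 0.21, adjusted p=0.028 from limma). The differences from Trp53+/+ were 0.45 in Trp53flox/flox (adjusted p=0.198) and -0.58 in Trp53R270H/R270H (adjusted p=0.135).

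Cldn12 (chromosome 5, 5505015 to 5514976) was at 25.9 and 27.1 rpkm in Trp53+/+, 16.4 and 17.4 rpkm in Trp53flox/flox and 21.9 and 20.6 rpkm in Trp53R270H/R270H organoids. The genotypes did not overlap, and their order was that of Cldn8, with the null organoids lowest. It fell by 0.62 on the log2 scale in Trp53flox/flox against Trp53+/+ (1.57-fold, s.e. 0.10, adjusted p=0.0272 from limma), and was not called between Trp53R270H/R270H and Trp53+/+ (-0.30, adjusted p=0.106) or Trp53flox/flox (0.32, adjusted p=0.07). Cldn23 (chromosome 8, 35824709 to 35826559) varied least, with 6.31 and 5.78, 6.24 and 7.63, and 4.85 and 5.32 rpkm, and was not called (adjusted p=0.42 in Trp53flox/flox against Trp53+/+, 0.357 and 0.102 in Trp53R270H/R270H against Trp53+/+ and Trp53flox/flox).

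Whether missense p53 organoids differ from wild-type ones was the first comparison. Of the 9 claudins tested, 0 were called by limma between Trp53R270H/R270H and Trp53+/+, and 3 had an unadjusted p under 0.05, whereas 12.2% of all genes tested were called. In 7 of the 9, Cldn2, Cldn3, Cldn4, Cldn7, Cldn8, Cldn12 and Cldn23, both Trp53R270H/R270H libraries lay below both Trp53+/+ libraries, in Cldn15 they lay above, and Cldn18 was at the floor in both genotypes. Such separation was common, as 81.8% of all genes tested did not overlap. The median log2 fold change of the 8 claudins above the floor was -0.45, beside 0.03 for all genes tested. The spread in this test is shared with the Trp53flox/flox libraries. With a weight for each genotype, limma called 6 of the 9 lower, with adjusted p from 0.00266 for Cldn8 to 0.0395 for Cldn2 (Cldn3 0.00572, Cldn4 0.00716, Cldn7 0.00377, Cldn12 0.00388), but that setting called 59.6% of all genes tested. When only these 2 genotypes were fitted, 57% of all genes were called and so were 7 of the claudins, the same 6 lower and Cldn15 higher (log2 fold change 0.35, adjusted p=0.0326).

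The second comparison set p53-null against wild-type organoids. Between Trp53flox/flox and Trp53+/+, 4 of the 9 claudins were called, Cldn3 and Cldn4 higher and Cldn8 and Cldn12 lower, where 11.3% of all genes tested were called. In 5 of the 9 the groups did not overlap (Cldn3, Cldn4 and Cldn7 higher, Cldn8 and Cldn12 lower), against 64.5% of all genes. The median log2 fold change was 0.17 over the 9 claudins and -0.02 over all genes. Among the 9 claudins, 5 were above zero and 4 below. The 5 include Cldn18, which was above the floor only in Trp53flox/flox replicate 2. The median over 9 claudins therefore depends on that library and is not like the median of the first comparison, which left Cldn18 out. Without Cldn18 the middle values were -0.40 (Cldn15) and 0.17 (Cldn23), on either side of the -0.02 of all genes. The claudin median is therefore not read as a difference from all genes. The 4 calls were lost, with unchanged fold changes, when the spread was taken from these 2 genotypes only or weighted by genotype, settings that called 0.468% and 1.49% of all genes. A block for the replicate number, with 2.79% of all genes called, gave 0 as well, with adjusted p of 0.0559 for Cldn3, 0.0607 for Cldn4, 0.0617 for Cldn8 and 0.0723 for Cldn12. Leaving out Trp53+/+ replicate 1 or 2 also gave 0, with 0.0797% and 0.0996% of all genes called, and so did leaving out either Trp53R270H/R270H library, with 0.368% called each time. Without Trp53flox/flox replicate 1 limma called 6 claudins and 40.4% of all genes, and without replicate 2 it called 7 claudins and 68.5% of all genes.

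Markers of differentiated intestinal cells had negative medians in the same comparison. The 4 enterocyte genes tested had a median log2 fold change of -1.64 in Trp53flox/flox against Trp53+/+, all 4 below zero and 1 called (Alpi, the intestinal alkaline phosphatase). The 4 goblet genes tested had a median of -1.17 and the 4 Paneth genes one of -1.16, with 2 of each called lower. Beside these, 11.3% of all genes tested were called, and the median of all genes was -0.02. Between Trp53R270H/R270H and Trp53+/+ the medians were 0.13, -0.94 and -1.71, with 0, 2 and 3 called lower and 1 Paneth gene called higher. Over all genes tested, 12.2% were called and the median was 0.03. Between Trp53R270H/R270H and Trp53flox/flox the marker medians were 1.40, 0.33 and 0.63, with 3, 1 and 1 called higher and 1 Paneth gene called lower. Over all genes tested, 24.6% were called and the median was 0.03. Chgb, the only enteroendocrine gene tested, was lower than in Trp53+/+ in Trp53flox/flox (-1.99, adjusted p=0.0223 from limma) and Trp53R270H/R270H (-2.32, adjusted p=0.0122). These marker calls are from the main setting alone. The part of these cells in the claudin values was not tested.

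The third comparison set missense against null organoids, and shares its libraries with the other 2. Cldn3, Cldn4 and Cldn7 were called lower in Trp53R270H/R270H than in Trp53flox/flox organoids, 3 of 9, where 24.6% of all genes tested were called. The groups did not overlap in 6 of 9 (Cldn3, Cldn4, Cldn7 and Cldn23 lower, Cldn8 and Cldn12 higher), against 68% of all genes. The median log2 fold change was -0.38 over the 9 claudins and 0.03 over all genes. Among the 9 claudins, 4 were above zero and 5 below. The 5 include Cldn18, which was above the floor only in Trp53flox/flox replicate 2, so this median also depends on that library. Without Cldn18 the middle values were -0.38 (Cldn23) and 0.32 (Cldn12), on either side of the 0.03 of all genes. This median is not read as a difference from all genes either. Of the 18 alternatives, 17 kept the call of Cldn4, 15 that of Cldn3 and 9 that of Cldn7. Without Trp53R270H/R270H replicate 1 none of the 9 was called, beside 1.65% of all genes, and without replicate 2 only Cldn4 was (adjusted p=0.0458), beside 2.67% of all genes. Without Trp53flox/flox replicate 1 limma called 9 claudins and 53% of all genes, and without replicate 2 it called 7 and 72.3%.

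**Figure D2:**
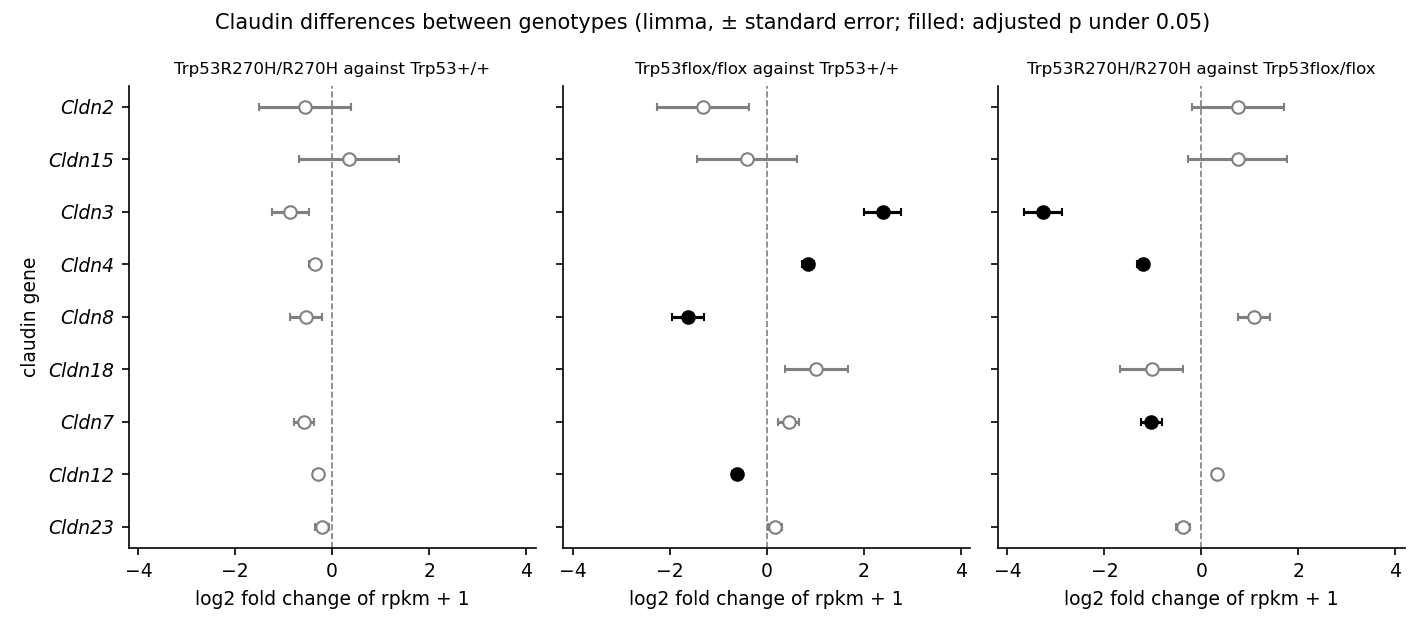
Log2 fold change of rpkm+1 from limma for the 9 claudins tested (rows) in the 3 comparisons (panels), with standard errors as bars and filled points where the adjusted p was under 0.05; Cldn18 has no point in the first panel because both genotypes were at the floor. Cldn3 and Cldn4 were called higher in null than in wild-type organoids and lower in missense than in null organoids.

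The spread was widest between the Trp53flox/flox libraries. The median s.d. of log2(rpkm+1) over the 8 claudins above the floor in every library was 0.0807 in Trp53+/+, 0.522 in Trp53flox/flox and 0.118 in Trp53R270H/R270H, where over all genes above the floor in every library it was 0.0457, 0.241 and 0.0618. The higher Trp53flox/flox library was 11.3-fold above the lower in Cldn15, 9.32-fold in Cldn2, 2.73-fold in Cldn8 and 2.07-fold in Cldn3, and at least 7.27-fold in Cldn18. Replicate 1 was the higher in Cldn3, Cldn7, Cldn8 and Cldn15, and replicate 2 in Cldn2, Cldn4, Cldn12, Cldn18 and Cldn23. Cldn4 and Cldn12, the 2 called claudins with the smallest standard errors, differed little between the same libraries, with an s.d. of 0.06 each.

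**Figure D3:**
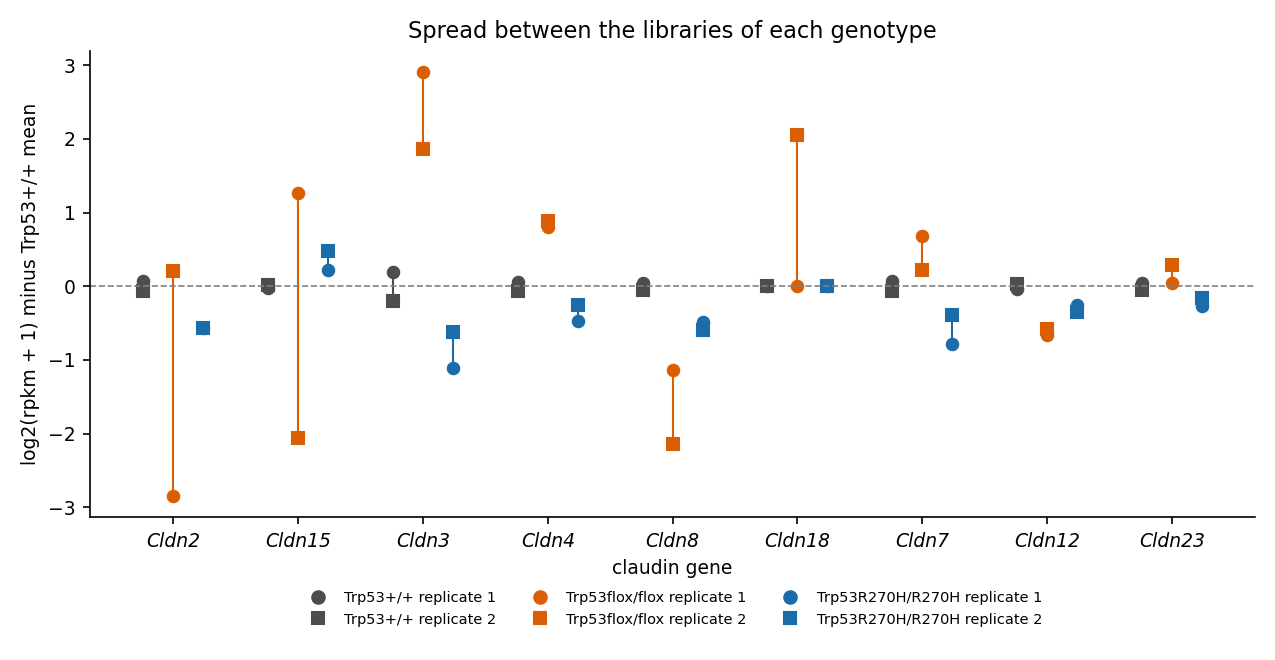
Difference of log2(rpkm+1) from the Trp53+/+ mean for each library and each of the 9 claudins tested, with lines joining the libraries of a genotype. The Trp53flox/flox libraries span both sides of zero in Cldn2 and Cldn15 and stay on 1 side in Cldn3, Cldn4, Cldn7, Cldn8, Cldn12 and Cldn23.

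Differences from the Trp53+/+ mean also varied with transcript length and GC content, in most bins more in replicate 1 than in replicate 2 of a mutant genotype. Among 9716 genes with both values (96.8% of those tested), the 373 with a GC content over 60% had a median log2 difference from the Trp53+/+ mean of 0.38 and 0.26 in the Trp53flox/flox libraries and -0.49 and -0.14 in the Trp53R270H/R270H libraries. The 886 genes with transcripts of over 1000 to 1500 nt had medians of 0.48 and 0.07, and -0.14 and -0.07, and the 1986 over 5000 nt had -0.53 and -0.03, and 0.16 and 0.12. The bins that hold Cldn4 had medians closer to zero, with 0.16 and 0.13, and -0.16 and 0.01, in the 1931 genes of over 55% to 60% GC, which include Cldn7, and 0.30 and 0.05, and -0.09 and -0.02, in the 1099 genes of over 1500 to 2000 nt. Cldn3 (1259 nt, 62.7% GC), Cldn7 (1335 nt, 57.0%) and Cldn4 (1816 nt, 56.8%) were short and GC-rich, and Cldn12 (3752 nt, 44.5%) and Cldn8 (2356 nt, 40.6%) were longer and GC-poor. After regression of each library on length and GC content, a correction added once the data had been seen, limma still called Cldn3 (1.91, adjusted p=0.0141), Cldn4 (0.66, adjusted p=0.0198), Cldn8 (-1.55, adjusted p=0.0236) and Cldn12 (-0.45, adjusted p=0.0161) in Trp53flox/flox against Trp53+/+, with 22.8% of all genes called. Between Trp53R270H/R270H and Trp53flox/flox the log2 fold changes became -2.38 for Cldn3, -0.87 for Cldn4 and -0.58 for Cldn7, all 3 still called (adjusted p=0.00705, 0.00875 and 0.0224), with 27.9% of all genes called. Those of Cldn3, Cldn4 and Cldn7 were smaller in size than without the correction, and that of Cldn7 by more than 1.5 times. Between Trp53R270H/R270H and Trp53+/+ the correction took Cldn3 to -0.46, Cldn4 to -0.21 and Cldn7 to -0.37, none of them called, and Cldn12 (-0.37, adjusted p=0.023) was called, with 23.7% of all genes called. Cldn3, Cldn4, Cldn12 and Cldn15 are on chromosome 5, whose 657 tested genes had median differences of 0.29 and 0.01 in the Trp53flox/flox libraries and 0.05 and 0.11 in the Trp53R270H/R270H libraries. The part of that shift in the claudin values was not tested.

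**Figure D4:**
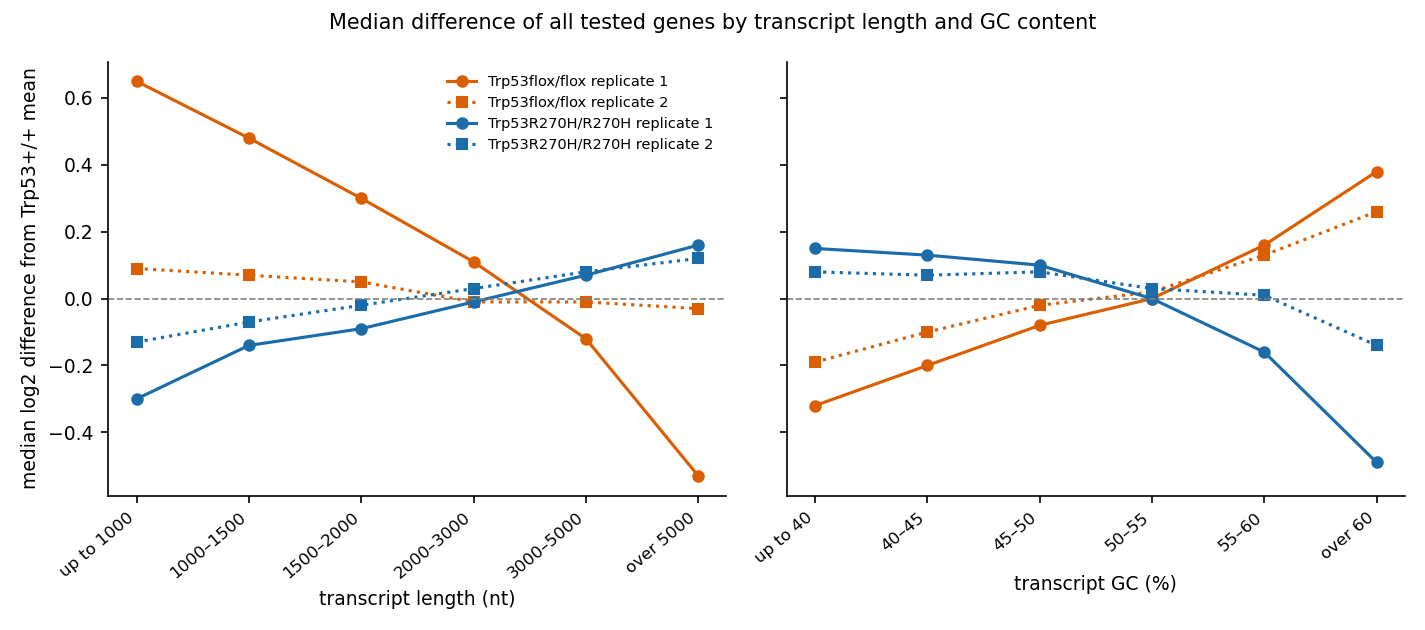
Median log2 difference from the Trp53+/+ mean over all tested genes with a known transcript, in bins of transcript length (left, nt) and GC content (right, %), for each Trp53flox/flox and Trp53R270H/R270H library. Short and GC-rich transcripts were higher in Trp53flox/flox replicate 1 and lower in Trp53R270H/R270H replicate 1, and the replicate 2 libraries had smaller medians. In genes of over 60% GC these had the sign of replicate 1, while in those of over 55% to 60% GC they were -0.16 in Trp53R270H/R270H replicate 1 and 0.01 in replicate 2.

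The other proteins of the tight junction were read from a list of 34 genes, of which 30 were tested. Limma called 3 of them lower in Trp53R270H/R270H than in Trp53+/+ organoids, 2 lower in Trp53flox/flox than in Trp53+/+, and 8 lower and 1 higher in Trp53R270H/R270H than in Trp53flox/flox, against the shares of all genes given above. The median log2 fold changes were -0.06, 0 and -0.04. Ocln, the occludin of the strands, was at 48.2 and 45.3 rpkm in Trp53+/+, 42.7 and 51.6 in Trp53flox/flox and 39.3 and 36.0 in Trp53R270H/R270H organoids and was not called. Neither was the scaffold Tjp1 (ZO-1), at 49.8 and 58.5, 37.2 and 71.9, and 54.2 and 50.1 rpkm, nor the adhesion molecule F11r (JAM-A), which lay between 107 and 119 rpkm in all 6 libraries. More than 2-fold differences between the Trp53flox/flox libraries were seen in 2 of the 30, Cgnl1 and Amotl1.

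The called genes came from scaffolds, polarity proteins and adhesion molecules. The 9 calls between Trp53R270H/R270H and Trp53flox/flox fell to 0 with weights per genotype or with only these 2 genotypes fitted, and the 2 calls between Trp53flox/flox and Trp53+/+ fell to 0 in those settings and under the replicate block. Leaving out any Trp53+/+ or Trp53R270H/R270H library also took both counts to 0. The scaffold Tjp3 (ZO-3) was at 32.1 and 25.5 rpkm in Trp53+/+, 55.3 and 57.0 in Trp53flox/flox and 17.9 and 27.4 in Trp53R270H/R270H organoids, a log2 fold change of -1.30 between the last 2 genotypes (adjusted p=0.0195 from limma). Its Trp53flox/flox libraries lay above all others, in the direction of Cldn3 and Cldn4, but the difference from Trp53+/+ missed the threshold (0.95, adjusted p=0.0582). The polarity protein Crb3 (-1.07, adjusted p=0.0242), the tricellular junction protein Ildr1 (-1.04, adjusted p=0.0258), Ybx3 (-0.99, adjusted p=0.0297), which binds ZO-1, Pard6a (-0.69, adjusted p=0.036) and Tjap1 (-0.53, adjusted p=0.029) were also lower in Trp53R270H/R270H than in Trp53flox/flox. Pard6b, a partner of atypical protein kinase C, was lower in Trp53R270H/R270H than in both others, at 11.8 and 15.5 rpkm against 22.9 and 24.7 in Trp53+/+ (-0.77, adjusted p=0.0353) and 23.8 and 24.4 in Trp53flox/flox (-0.79, adjusted p=0.0229). So was the angiomotin Amotl2 (-0.95, adjusted p=0.0191, and -0.68, adjusted p=0.0281), while Amot was lower in Trp53flox/flox than in Trp53+/+ (-0.48, adjusted p=0.0463) and higher in Trp53R270H/R270H than in Trp53flox/flox (0.77, adjusted p=0.0111). Esam, an adhesion molecule also of endothelium, was lower in both mutant genotypes, at 1.75 and 3.15 rpkm in Trp53flox/flox and 2.24 and 2.28 in Trp53R270H/R270H against 6.47 and 6.29 rpkm in Trp53+/+ organoids (-1.13, adjusted p=0.0382 and -1.18, adjusted p=0.0335). Of the endothelial markers listed, only Cdh5 moved with it, with the values given above. Pecam1, Kdr and Emcn were at the floor in every library, and Cldn5 was above it only in Trp53R270H/R270H. The part of endothelial cells in the Esam result was not tested.

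Partners of claudin-7 were read beside it. Epcam, which holds claudin-7 at the membrane, was at 306 and 280 rpkm in Trp53+/+, 399 and 305 in Trp53flox/flox and 330 and 351 in Trp53R270H/R270H organoids, with adjusted p from 0.312 to 0.876. Of the proteases and inhibitors that act on Epcam and its partners, the inhibitor Spint2 was lower in Trp53R270H/R270H than in Trp53flox/flox (-0.64, adjusted p=0.041), and Spint1 and the protease St14 were not called, nor was the tetraspanin Cd9.

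The table held 16 further rows with a claudin symbol, and 13 of them were at the floor in all libraries. Cldn6, a claudin of embryonic epithelium, was at 15.5 rpkm in Trp53flox/flox replicate 2, at 1.11 and 1.32 rpkm in Trp53R270H/R270H and at the floor in the others, so Cldn6 and Cldn18 were both found well above the floor in the same single library. The row labelled Cldn25 is, by its identifier and aliases, Cldnd1, a claudin-domain protein, and lay between 22.0 and 30.8 rpkm in all 6 libraries.

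The genotype means of log2(rpkm+1) ranged most widely for Cldn3 (3.26) and Cldn8 (1.63), and for these the most similar profiles over the 6 libraries were sought as the smallest root mean square difference of centred log2 values. Next to Cldn3 came Cox6a1, a subunit of cytochrome c oxidase, with a difference of 0.261 and 90.2, 78.2, 448, 222, 36.0 and 61.0 rpkm in the order Trp53+/+, Trp53flox/flox and Trp53R270H/R270H, then 2810428I15Rik (0.309) and 2700094K13Rik (0.333). Next to Cldn8 came the lysosomal hexosaminidase Hexa (0.132), with 60.4, 60.5, 27.9, 17.0, 47.8 and 44.6 rpkm, the annexin Anxa13 (0.136) and Ms4a8a (0.139). These are descriptions over 6 libraries of 3 genotypes.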

How the data were processed

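RNA from organoids of 3 Trp53 genotypes, with 2 libraries each, was sequenced after TruSeq Stranded mRNA preparation. Reads were aligned to mm10 by the authors, who used StrandNGS to compute the deposited rpkm values, and its version, annotation and filters are not given in the sources used here. No value is below 1 rpkm and 23760 genes (65.7%) are at 1 in all libraries, so what lay lower was probably set to 1 and is unknown.

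The 10042 genes that reached 4 rpkm in any library were fitted on log2(rpkm+1) with limma 3.58.1 in R 4.3.3 (all 6 libraries, no block, trend, two-sided, Benjamini-Hochberg adjustment at 0.05), so fold changes of low genes are understated. Replicates were prepared from separate mice. The code was tested on simulated data. The members and lists were chosen with earlier results of these data known. All 10 members are named, tight junction genes where called in at least 1 comparison (10 genes) and always Ocln, Tjp1 and F11r, the claudin-7 partners, the 4 stomach genes with the highest level, and 3 similar genes for each of the 2 claudins with the widest range. One gene that meets this rule is left out of the text.

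Depth was estimated from the steps of 1 read in rpkm of short RNA genes, as 44.2 to 47.4 M reads in 4 libraries, and could not be resolved in Trp53+/+ replicate 1 and Trp53flox/flox replicate 1. Positions and promoters are from RefSeq (GRCm38.p6), transcript lengths and GC content from GENCODE M21. Python 3.11.15 was used. Same-numbered libraries deviated from their genotype means with correlations across genes of 0.117, -0.291 and -0.196, so the numbers were not taken to pair them. Other settings tried were a pseudocount of 0.1, a filter just above the floor or none, scaling by upper quartiles or median ratios, a replicate block, weights per genotype, fits of the 2 genotypes compared, no trend, a length and GC correction, and each library left out in turn.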

Additional observations from a re-analysis of the deposited data

How the results depend on the processing

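The numbers of claudins called are given for Trp53R270H/R270H against Trp53+/+, Trp53flox/flox against Trp53+/+ and Trp53R270H/R270H against Trp53flox/flox, in that order. They were 0, 4 and 3 as reported, and stayed within 1.5 times of that with a filter just above the floor, both rescalings, a pseudocount of 0.1 and no trend. Without a filter they were 3, 5 and 1 (with 75.9%, 75.3% and 2.09% of all 36172 genes called), with only the 2 genotypes compared 7, 0 and 2, and with weights per genotype 6, 0 and 2. The replicate block gave 0, 0 and 2 claudins, and 1, 0 and 3 tight junction genes. With the Trp53R270H/R270H numbers exchanged, because the correlations with that genotype were negative, it gave 0, 3 and 3 claudins and, for Trp53flox/flox against Trp53+/+, 0 tight junction genes. Correction for length and GC content gave 1, 4 and 3 claudins, and with weights per genotype as well 6, 2 and 2. These corrections and the exchange were chosen after the data were seen. Leaving out each library gave 0 to 7, 0 to 7 and 0 to 9 claudins, and the cause of the differences between settings was not tested. The shares of all genes called were 57%, 0.468% and 3.76% with only the 2 genotypes compared, 59.6%, 1.49% and 5.32% with weights, 5.48%, 2.79% and 11.5% under the block, 9.37%, 8.69% and 22.7% under the exchanged block, 23.7%, 22.8% and 27.9% with the length and GC correction, 64.4%, 6.5% and 9.76% with that and weights, and 0% to 57.1%, 0.0797% to 68.5% and 1.65% to 72.3% with a library left out. The same shares stand beside the tight junction counts.

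Tight junction genes called numbered 3, 2 and 9 as reported, 9, 9 and 1 without a filter, 16, 0 and 0 with only the 2 genotypes compared, 18, 0 and 0 with weights, 6, 3 and 11 with the length and GC correction and 18, 1 and 1 with that correction and weights. Without a trend 1 was called in Trp53flox/flox against Trp53+/+. Leaving out each library gave 0 to 16, 0 to 22 and 0 to 22.

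Among 468 results of single claudins and alternatives, 4 changed direction, all on leaving out a Trp53flox/flox library. Without replicate 1, Cldn2 became 0.21 in Trp53flox/flox against Trp53+/+ and -0.77 in Trp53R270H/R270H against Trp53flox/flox, and Cldn15 kept its direction at -2.06 and 2.41. Without replicate 2, Cldn15 became 1.26 and -0.91, and Cldn2 kept its direction at -2.85 and 2.29. Where Cldn1 and Cldn18 stood at 1 rpkm, whether they were expressed at a lower level is unknown. At an estimated depth of 44.2 M reads, 1 rpkm corresponds to about 144 and 184 reads on their transcripts.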
